A study of Homo sapiens with 4 samples.

Results

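The 38 genes described here carry the ATF4 amino acid response and the unfolded protein response of the endoplasmic reticulum (ER). They were taken as a list by Ensembl identifier from the 50653 genes of the deposited table, by a rule that uses no measured value, although earlier results of these data were known when the list was made. They comprised 8 factors of the ATF4 branch, 4 stress and feedback targets of ATF4, 4 genes of amino acid supply, 6 cytosolic tRNA synthetases, 3 ER stress sensors with XBP1, 9 ER chaperones and folding enzymes, and 3 genes of ER-associated degradation. RNA was sequenced from BT-20 and MDA-MB-468, established triple-negative breast cancer cell lines. Each line carried either a control short hairpin RNA (shRNA) or an shRNA against QPRT, the quinolinate phosphoribosyltransferase of the kynurenine route to NAD. Both shRNAs were delivered by lentivirus, that against QPRT in the pLKO.1-puro vector, and cells were selected with puromycin, so all 4 groups share transduction and selection, and no untransduced cells were measured. Each group was 1 library, so a difference within a line has no replicate check. BT-20 was grown in Eagle's minimum essential medium and MDA-MB-468 in Leibovitz's L-15 medium, both with fetal bovine serum, so line and medium cannot be told apart.

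QPRT, the targeted gene, was at 248.6 FPKM (fragments scaled to transcript length and to library size) with control shRNA and 40.5 FPKM with QPRT shRNA in BT-20. It was at 117.3 and 18.3 FPKM in the same order in MDA-MB-468. The fragments assigned to genes, recovered from the FPKM values, numbered between 10321996 and 10945948 per library. Epithelial genes were high in every library (KRT8 between 1548 and 4214 FPKM), PGR was listed at 0 in all 4 and ESR1 lay between 1.05 and 5.76 FPKM. PTPRC did not exceed 0.34 FPKM, whereas COL1A1, a fibroblast collagen, lay between 14.7 and 32.0 FPKM. PTPRC, COL1A1 and PECAM1 were listed beforehand as not expected in these cells. PECAM1, like COL1A1, had a mean of at least 1 FPKM. A list of 14 gut, gastric and plasma cell markers, chosen as a sign of RNA from other tissue, moved with the shRNA. Its summed level was 89.4 FPKM with control shRNA and 34.8 FPKM with QPRT shRNA for BT-20, and 198.6 and 35.2 FPKM in MDA-MB-468. All 12 of these markers that passed the filter were lower with QPRT shRNA in both lines, and none of the 14 was at 0 in any library. The part of this RNA in the results below was not tested. The change with QPRT shRNA also followed the GC content of transcripts across 14232 genes, with a Spearman rho of -0.27 in BT-20 against 0.28 in MDA-MB-468, given as a description. Values with this trend removed are given for the genes where they bear most on a statement, and not for all.

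ATF4 is a transcription factor whose messenger RNA is translated better when the initiation factor eIF2 is phosphorylated. Kinases that sense scarce amino acids, unfolded proteins in the ER, double-stranded RNA or lack of heme carry out this phosphorylation, and ATF4 then raises genes that supply amino acids, charge tRNAs and, under lasting stress, promote cell death. The unfolded protein response has 3 sensors in the ER membrane. PERK, encoded by EIF2AK3, is a kinase for eIF2. IRE1, encoded by ERN1, splices XBP1 messenger RNA. ATF6 is cut in the Golgi and its released part enters the nucleus. XBP1 and ATF6 raise chaperones and the machinery that removes misfolded proteins. Levels of messenger RNA as measured here show neither eIF2 phosphorylation nor XBP1 splicing.

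All 38 genes were expressed, with a mean over the 4 libraries above the minimum of 1 FPKM used for every comparison. The 14321 genes that passed this minimum serve as the background. In the BT-20 control library the genes ranged from 7.15 FPKM for ERN1 to 1698 FPKM for AARS1, with a median of 136.9 FPKM. In the MDA-MB-468 control library they ranged from 11.6 FPKM for EIF2AK3 to 1710 FPKM for CALR, with a median of 181.1 FPKM. Among the groups, the 9 chaperones and the 6 synthetases had the largest summed levels in every library, while the 3 sensors stayed between 7.15 and 22.3 FPKM.

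**Figure D1:**
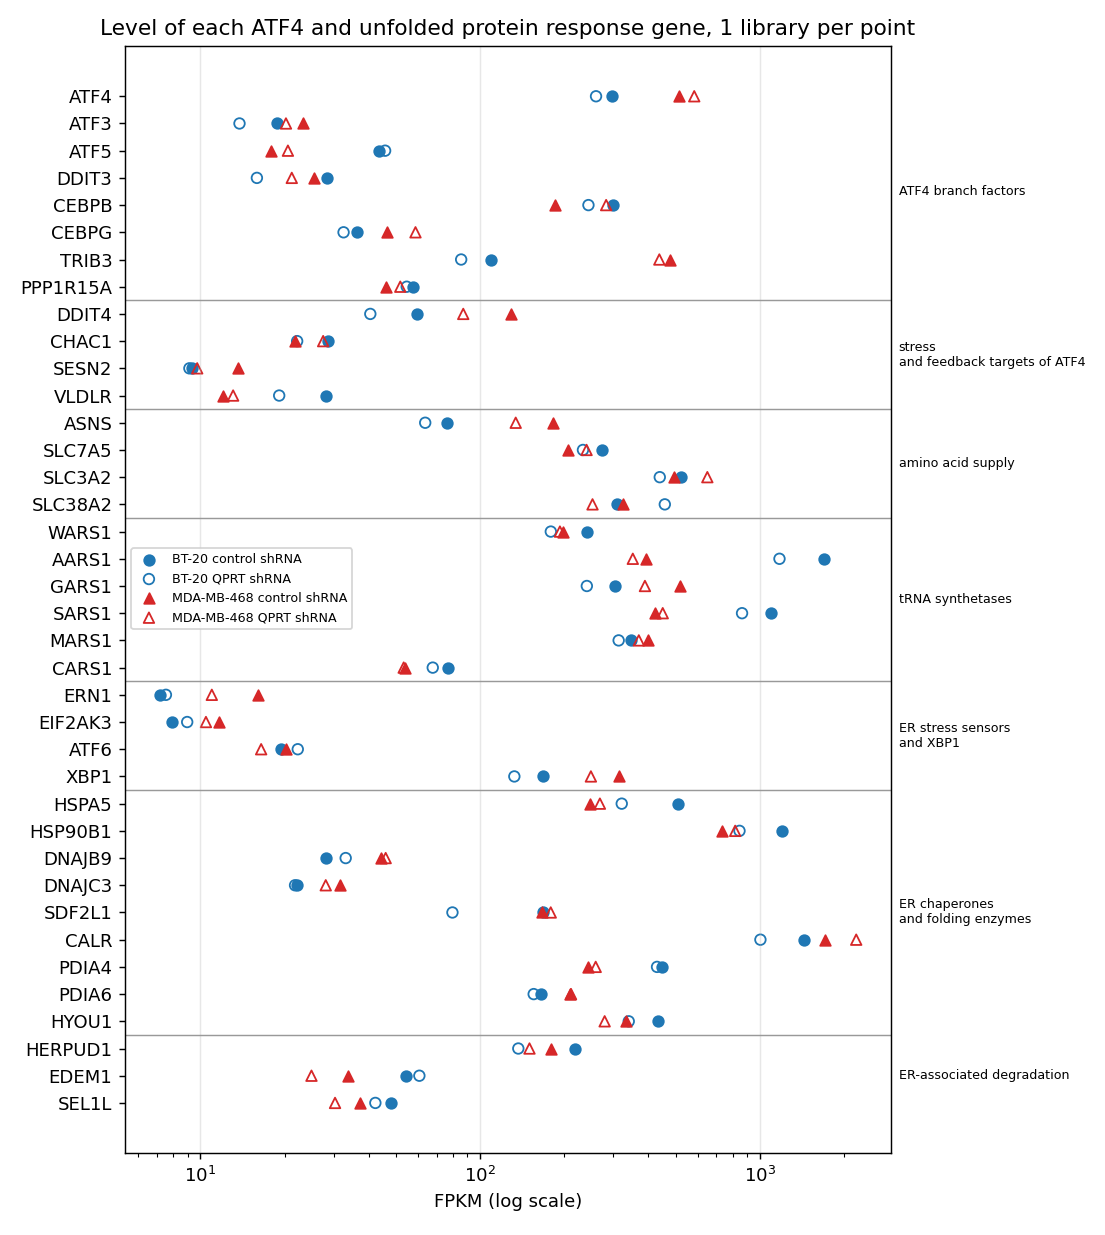
FPKM on a log scale of each of the 38 genes, grouped by role, with 1 point per library (circles BT-20, triangles MDA-MB-468, filled control shRNA, open QPRT shRNA). Sensors lie at or below 22.3 FPKM, while AARS1, HSP90B1, CALR and SARS1 are among the highest, and TRIB3 and AARS1 show the widest gaps between the lines.

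In BT-20 most of these genes were lower with QPRT shRNA. Of the 38, 31 (81.6%) were lower and 7 higher, where 43.0% of the background genes were lower. Their median difference in log2(FPKM + 1), QPRT shRNA minus control shRNA, was -0.25, beside 0.05 over the background. The median was -0.36 after upper quartile scaling of the libraries, -0.21 on the transcript-proportional TPM scale and -0.24 with the GC and length trend removed. Single differences were mostly under 1.5-fold. At 1.5-fold or more, 4 genes were lower (10.5%, background 3.27%), namely SDF2L1, DDIT3, HSPA5 and HERPUD1. Under upper quartile scaling 9 were lower by 1.5-fold (background 4.96%), and 33 were lower by any size where 54.7% of the background genes were. None was 1.5-fold higher (background 5.7%). At 2-fold or more, SDF2L1 alone was lower (background 0.649%) and none was higher (background 1.05%). In bulk RNA, fewer cells of a kind and less RNA per cell cannot be told apart.

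In MDA-MB-468 the list lay nearer to the background. With QPRT shRNA 21 of the 38 (55.3%) stood lower, where 47.6% of the background genes were lower, and the median difference was -0.08 beside 0.01. None was lower by 2-fold (background 0.866%) or by 1.5-fold (background 3.71%). None was higher by 2-fold (background 1.03%), and CEBPB alone was higher by 1.5-fold (background 5.46%), a call that ended under upper quartile scaling, at 0.58. Between the lines, 16 genes were lower in both (42.1%, background 17.7%), among them DDIT3, DDIT4, TRIB3, ASNS, XBP1, HERPUD1 and 5 of the 6 synthetases. A further 15 were lower in BT-20 and higher in MDA-MB-468 (39.5%, background 24.8%), among them ATF4, CEBPB and 6 of the 9 chaperones. Both counts are parts of the 31 genes (81.6%) that were lower in BT-20, so neither share is a measure of agreement between the lines. Of all 38, 9 genes had opposite signs in the lines with the differences at least 1.5-fold apart (background 19.0%). Of the remaining genes, ATF5 and DNAJB9 (5.26%) were higher in both lines, as were 3757 of the 14321 background genes. SLC38A2, EDEM1 and the 3 sensors (13.2%) were higher in BT-20 and lower in MDA-MB-468, as were 4261 of the background genes.

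**Figure D2:**
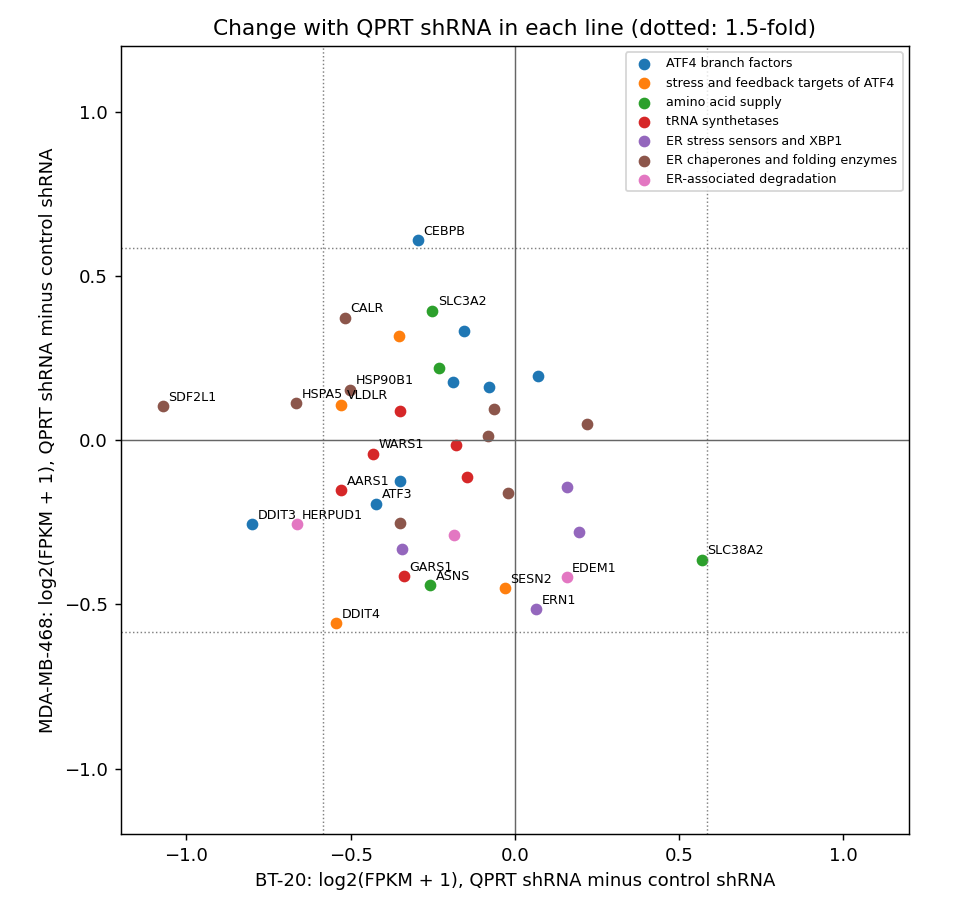
Difference in log2(FPKM + 1), QPRT shRNA minus control shRNA, in BT-20 (x axis) and MDA-MB-468 (y axis) for the 38 genes, coloured by role, with dotted lines at 1.5-fold. Most points lie left of 0 on the x axis, SDF2L1 farthest at -1.07, and CEBPB lies highest on the y axis at 0.61.

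When both lines were fitted together by limma, with the line as a block, none of the 38 genes had a Benjamini-Hochberg adjusted p under 0.05 for the shRNA (0.628% of the background genes did). The lowest adjusted p by limma was 0.447, for DDIT4. At an unadjusted limma p under 0.05 there were 5 genes, DDIT4, SDF2L1, HERPUD1, DDIT3 and GARS1, all with negative estimates, and 687 of the background genes. The fit has 1 residual degree of freedom per gene. Of the 90 background genes that passed, 10 were gut, gastric and plasma cell markers from the list above.

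Among the factors of the ATF4 branch, 7 of 8 were lower in BT-20 with QPRT shRNA (median -0.24), and 3 of 8 in MDA-MB-468 (median 0.17). ATF4 itself was at 296.2 FPKM with control and 259.9 FPKM with QPRT shRNA for BT-20, and at 516.2 and 583.3 FPKM in MDA-MB-468. The log2 difference was -0.19 in BT-20 against 0.18 in MDA-MB-468, small changes in opposite directions. DDIT3 encodes CHOP, a factor that promotes cell death under lasting ER stress. It was at 28.4 and 15.9 FPKM in BT-20, control first, and at 25.5 and 21.2 FPKM in MDA-MB-468, so both QPRT shRNA libraries lay below both control libraries. The log2 difference was -0.80 in BT-20, with a 95% interval for counting error of -1.13 to -0.55, and -0.26 in MDA-MB-468 with an interval of -0.55 to 0.00. The intervals here and below are Clopper-Pearson intervals on recovered fragments and leave out the variation between cultures. They are taken without the 1 added to FPKM, so they are not centred on the differences given, which bears most on low genes. For DDIT3 the recovered fragments were not whole numbers, so its interval is approximate. DDIT3 shares 27.2% of its exon bases with MARS1 on the opposite strand, and reads of overlapping genes cannot be told apart without strand.

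CEBPB, a partner factor of ATF4, had the highest positive difference of the 38 genes in MDA-MB-468. It was at 299.8 and 244.1 FPKM in BT-20, control first, and at 184.9 and 282.4 FPKM in MDA-MB-468. The log2 difference was -0.30 in BT-20 against 0.61 in MDA-MB-468, and 0.45 in MDA-MB-468 with the GC trend removed. CEBPG, which also pairs with ATF4, had the same pair of signs, at -0.15 and 0.33, or -0.37 and 0.48 with the trend removed. ATF3, a stress-induced repressor, was lower in both lines, at -0.42 and -0.19. PPP1R15A, which encodes the GADD34 subunit that leads a phosphatase to eIF2, had log2 differences of -0.08 and 0.16. ATF5, a factor with an upstream reading frame control like that of ATF4, differed by 0.07 and 0.19, and its sign in BT-20 turned to -0.03 under upper quartile scaling. TRIB3, a pseudokinase that feeds back on ATF4 and CHOP, had log2 differences of -0.35 and -0.12.

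The 4 stress and feedback targets were all lower in BT-20 (median -0.44, or -0.28 with the GC trend removed), and 2 of them in MDA-MB-468 (median -0.17). DDIT4 encodes REDD1, an inhibitor of the growth kinase complex mTORC1. It was at 59.5 and 40.5 FPKM in BT-20, control first, and at 128.6 and 87.1 FPKM in MDA-MB-468. The log2 differences were -0.54 and -0.56, nearly the same in each line. The limma estimate over both lines was -0.55 with a standard error of 0.20. With the GC trend removed the differences were -0.34 and -0.71. SESN2, a leucine sensor that also restrains mTORC1, was at 9.35 and 9.13 FPKM in BT-20 and at 13.7 and 9.74 FPKM in MDA-MB-468, control first. Its log2 difference was -0.03 in BT-20, with an interval of -0.25 to 0.19 that includes 0, and -0.45 in MDA-MB-468. CHAC1, an enzyme that degrades glutathione, had log2 differences of -0.35 in BT-20 against 0.32 in MDA-MB-468. VLDLR, a lipoprotein receptor, was at 28.0 and 19.1 FPKM in BT-20 and at 12.1 and 13.1 FPKM in MDA-MB-468, a log2 difference of -0.53 and 0.11, or -0.66 and 0.16 with the GC trend removed.

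Of the 4 amino acid supply genes, 3 were lower in BT-20 (median -0.24) and 2 in MDA-MB-468 (median -0.07). ASNS, asparagine synthetase, was at 76.3 and 63.7 FPKM in BT-20, control first, and at 182.6 and 134.1 FPKM in MDA-MB-468. It was lower in both lines, at -0.26 and -0.44. SLC7A5 and SLC3A2 encode the light and heavy chain of the LAT1 amino acid exchanger, and each was lower in BT-20 and higher in MDA-MB-468. SLC7A5 had log2 differences of -0.23 and 0.22, and SLC3A2 had -0.25 and 0.39. SLC38A2, the SNAT2 transporter of small neutral amino acids, went the other way. It was at 308.1 and 457.8 FPKM in BT-20 and at 325.1 and 252.4 FPKM in MDA-MB-468, a log2 difference of 0.57 and -0.36. Of the 38 genes it had the highest positive difference in BT-20.

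All 6 tRNA synthetases of the list were lower with QPRT shRNA in BT-20 (median -0.34) and 5 of 6 in MDA-MB-468 (median -0.08). Their summed level was 3770 FPKM with control and 2842 FPKM with QPRT shRNA for BT-20, and 1985 and 1806 FPKM in MDA-MB-468. AARS1, alanyl-tRNA synthetase, took the largest share of this sum in BT-20. It was at 1698 and 1177 FPKM in BT-20, control first, and at 391.1 and 351.7 FPKM in MDA-MB-468, a log2 difference of -0.53 and -0.15. SARS1, seryl-tRNA synthetase, was at 1102 and 864.7 FPKM in BT-20 and at 423.5 and 450.1 FPKM in MDA-MB-468. GARS1, glycyl-tRNA synthetase, was lower by a like amount in each line, at -0.34 and -0.41. WARS1, tryptophanyl-tRNA synthetase, had log2 differences of -0.43 and -0.04, and CARS1, cysteinyl-tRNA synthetase, had -0.18 and -0.02. MARS1, methionyl-tRNA synthetase, had log2 differences of -0.15 and -0.11, and its BT-20 value was 0.02 with the GC trend removed. The other 14 cytosolic synthetase genes of a separate list did not share the BT-20 shift, with 7 lower and a median of 0.01. In MDA-MB-468 12 of these 14 were lower, with a median of -0.21. None of the 14 differed by 1.5-fold with QPRT shRNA in either line.

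Of the 38 genes 10 hold a C/EBP-ATF composite site in the promoter window from 250 bases before to 50 bases after the start of the gene. The search used the letters TGATGNAAN on both strands of the RefSeq windows (assembly GRCh38.p14), and 4.45% of 27305 genes had a match in at least 1 window (3.61% of 35116 windows). The 10 genes were ATF3, CEBPG, ASNS, SLC3A2, CHAC1, HERPUD1, AARS1, GARS1, MARS1 and CARS1. The stretches of 3 of them are shown as an example each of an amino acid enzyme, a synthetase and a stress target. Each is read 5′ to 3′ on the strand of the gene, and capitals mark the match. ASNS lies on the minus strand at chr7:97872443-97872501, AARS1 on the minus strand at chr16:70289661-70289719 and CHAC1 on the plus strand at chr15:40953236-40953294.
ASNS: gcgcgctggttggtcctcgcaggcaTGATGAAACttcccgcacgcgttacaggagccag
AARS1: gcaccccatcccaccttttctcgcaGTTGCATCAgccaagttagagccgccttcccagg
CHAC1: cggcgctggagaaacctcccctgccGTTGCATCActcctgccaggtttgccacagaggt
In AARS1 and CHAC1 the same 9 bases match in the reverse orientation, and in ASNS the match runs with the gene. Over the 272 background genes with a match, the median difference was 0.07 in BT-20 against 0.00 in MDA-MB-468, and 110 of the 272 were lower in BT-20. The 272 include the 10 genes of the list. Of the 262 outside the list, 100 were lower in BT-20, with a median of 0.08, and 133 were lower in MDA-MB-468.

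The 3 sensors were among the least abundant of the 38 genes. ERN1 was at 7.15 and 7.53 FPKM in BT-20, control first, and at 16.1 and 11.0 FPKM in MDA-MB-468. EIF2AK3 was at 7.92 and 8.97 FPKM in BT-20 and at 11.6 and 10.5 FPKM in MDA-MB-468. ATF6 was at 19.3 and 22.3 FPKM in BT-20 and at 20.2 and 16.5 FPKM in MDA-MB-468. Each was thus slightly higher in BT-20 and lower in MDA-MB-468, but the BT-20 signs did not hold under every scaling. The counting interval in BT-20 was -0.29 to 0.44 for ERN1 and -0.11 to 0.47 for EIF2AK3, and both include 0. With the GC trend removed EIF2AK3 stood at -0.01 and ATF6 at -0.02 in BT-20. For EIF2AK3 in MDA-MB-468 the log2 difference was -0.14, with an interval of -0.41 to 0.10 that includes 0. With the trend removed EIF2AK3 stood at -0.01 in MDA-MB-468, and ATF6 went from -0.28 to -0.13. ERN1 in MDA-MB-468 was lower, at -0.52, with an interval of -0.83 to -0.28. XBP1, the target of IRE1, was at 168.4 and 132.6 FPKM in BT-20 and at 313.7 and 249.1 FPKM in MDA-MB-468. Its log2 difference was -0.34 in BT-20 against -0.33 in MDA-MB-468, a like decrease in each line, and removal of the GC trend left both values unchanged at 2 decimals.

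Of the 9 chaperones and folding enzymes, 6 differed in sign between the lines, all of them lower in BT-20. Opposite signs were common in the background. Of its 14321 genes, 3552 were lower in BT-20 and higher in MDA-MB-468, and 4261 were the reverse. With 1 library per group the contrast cannot be tested. Of the 6 genes, PDIA4, PDIA6 and SDF2L1 changed sign in 1 of the lines under another setting, as given below. In BT-20 8 of 9 were lower with QPRT shRNA (median -0.35), and their summed level was 4415 FPKM with control and 3233 FPKM with QPRT shRNA. In MDA-MB-468 7 of 9 were higher (median 0.09), and the sum was 3720 and 4302 FPKM. HSPA5 encodes BiP, the HSP70 chaperone of the ER that also holds the sensors inactive. It was at 509.7 and 321.1 FPKM in BT-20, control first, and at 248.0 and 268.3 FPKM in MDA-MB-468. The log2 difference was -0.67 in BT-20, with a counting interval of -0.70 to -0.64, and 0.11 in MDA-MB-468. With the GC trend removed these were -0.83 and 0.20. HSP90B1, the HSP90 of the ER, was at 1199 and 846.7 FPKM in BT-20 and at 734.6 and 817.2 FPKM in MDA-MB-468, a log2 difference of -0.50 and 0.15. CALR, calreticulin, a lectin chaperone that binds calcium, was at 1441 and 1006 FPKM in BT-20 and at 1710 and 2214 FPKM in MDA-MB-468. Its log2 difference was -0.52 and 0.37, or -0.35 and 0.28 with the GC trend removed.

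SDF2L1, a partner of the BiP cycle, had the lowest value of the 38 genes in BT-20. It was at 168.5 and 79.7 FPKM in BT-20, control first, and at 166.6 and 179.0 FPKM in MDA-MB-468, so 3 libraries lay close together and the BT-20 library with QPRT shRNA stood below them. The log2 difference was -1.07 in BT-20, with a counting interval of -1.22 to -0.94, and -0.79 with the GC trend removed, which is under 2-fold. In MDA-MB-468 it was 0.10, and -0.10 with the trend removed. HYOU1, an exchange factor for BiP, was lower in both lines, at -0.35 and -0.25. PDIA4 and PDIA6, disulfide isomerases, had log2 differences of -0.06 and -0.08 in BT-20 and of 0.09 and 0.01 in MDA-MB-468. The sign of PDIA4 in BT-20 turned with the GC trend removed, and that of PDIA6 in MDA-MB-468 turned under upper quartile and TPM scaling. PDIA6 shares 25.2% of its exon bases with ATP6V1C2 on the opposite strand. Of the co-chaperones with a J domain, DNAJB9 was higher in both lines (0.22 and 0.05) and DNAJC3 had log2 differences of -0.02 and -0.16, its BT-20 sign turning under TPM scaling. With the GC trend removed DNAJC3 stood at -0.25 and -0.01.

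The ER stress response element is a longer promoter motif through which ATF6, with the factor NF-Y, acts on chaperone genes. The search took CCAAT, any 9 bases and CCACG, on either strand, and found them in 0.0916% of the 27305 genes (0.0769% of windows), and in 5 of the 38 genes, PDIA6, HSPA5, HSP90B1, CALR and XBP1. Its end CCACG alone was in 38.1% of windows. The stretches of 3 of the genes are shown as those of 2 abundant chaperones and of the regulator XBP1, with capitals on each match and the base order 5′ to 3′ on the strand of the gene. HSPA5 lies on the minus strand at chr9:125241366-125241434, HSP90B1 on the plus strand at chr12:103930191-103930364 with 2 matches, and XBP1 on the minus strand at chr22:28800578-28800646.
HSPA5: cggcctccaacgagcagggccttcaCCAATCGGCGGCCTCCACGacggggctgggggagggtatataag
HSP90B1: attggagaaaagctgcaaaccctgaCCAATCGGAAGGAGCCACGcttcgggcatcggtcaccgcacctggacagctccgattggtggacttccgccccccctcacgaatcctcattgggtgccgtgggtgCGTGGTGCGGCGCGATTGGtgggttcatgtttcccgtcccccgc
XBP1: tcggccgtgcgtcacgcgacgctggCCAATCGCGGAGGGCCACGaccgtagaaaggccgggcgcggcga
All 5 genes with the motif were lower in BT-20 with QPRT shRNA, as were 31 of all 38 genes (81.6%). In MDA-MB-468 XBP1 was lower (-0.33), whereas PDIA6 (0.01), HSPA5 (0.11), HSP90B1 (0.15) and CALR (0.37) were higher. Of the 11 background genes outside the list that hold the motif, 6 were lower in BT-20, with a median of -0.03. In MDA-MB-468 7 of these 11 were lower, with a median of -0.02.

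Of the ER-associated degradation genes, HERPUD1 was lower in both lines. It encodes a membrane protein that organises the ubiquitin ligase complex of this route. HERPUD1 was at 217.7 and 137.0 FPKM in BT-20, control first, and at 179.6 and 150.2 FPKM in MDA-MB-468, a log2 difference of -0.66 and -0.26. SEL1L, the adaptor of the HRD1 ligase, was lower, at -0.18 and -0.29. EDEM1, which directs misfolded glycoproteins to degradation, was at 54.3 and 60.7 FPKM in BT-20 and at 33.65 and 24.95 FPKM in MDA-MB-468, a log2 difference of 0.16 and -0.42.

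Other genes of the same pathways were read from separate lists, beside the members. Of 23 further ATF4 targets 15 were lower in BT-20, with a median of -0.16, and 12 were lower in MDA-MB-468, with a median of -0.05. None passed 2-fold with the pseudocount of 1. With a pseudocount of 0.1, 1 was lower and 1 higher by 2-fold in MDA-MB-468, and under upper quartile scaling 1 was lower in BT-20. At 1.5-fold, NUPR1 (-0.93), a stress-induced chromatin protein, and FGF21 (-0.78), a stress hormone, were lower in BT-20. In MDA-MB-468 SLC7A11 (-0.70), the cystine exchanger, was lower and GDF15 (0.97), a stress hormone, was higher. Of 28 further XBP1 and ATF6 targets 18 were lower in BT-20, with a median of -0.08, and 15 were lower in MDA-MB-468, with a median of -0.02. At 1.5-fold, CRELD2 (-0.89) and MANF (-0.70), both small ER proteins secreted under stress, were lower in BT-20, and MBTPS2 (-0.69), a protease that cuts ATF6, was lower in MDA-MB-468. These 7 genes were chosen after their values were seen, since none passed 2-fold on the main scale.

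**Figure D3:**
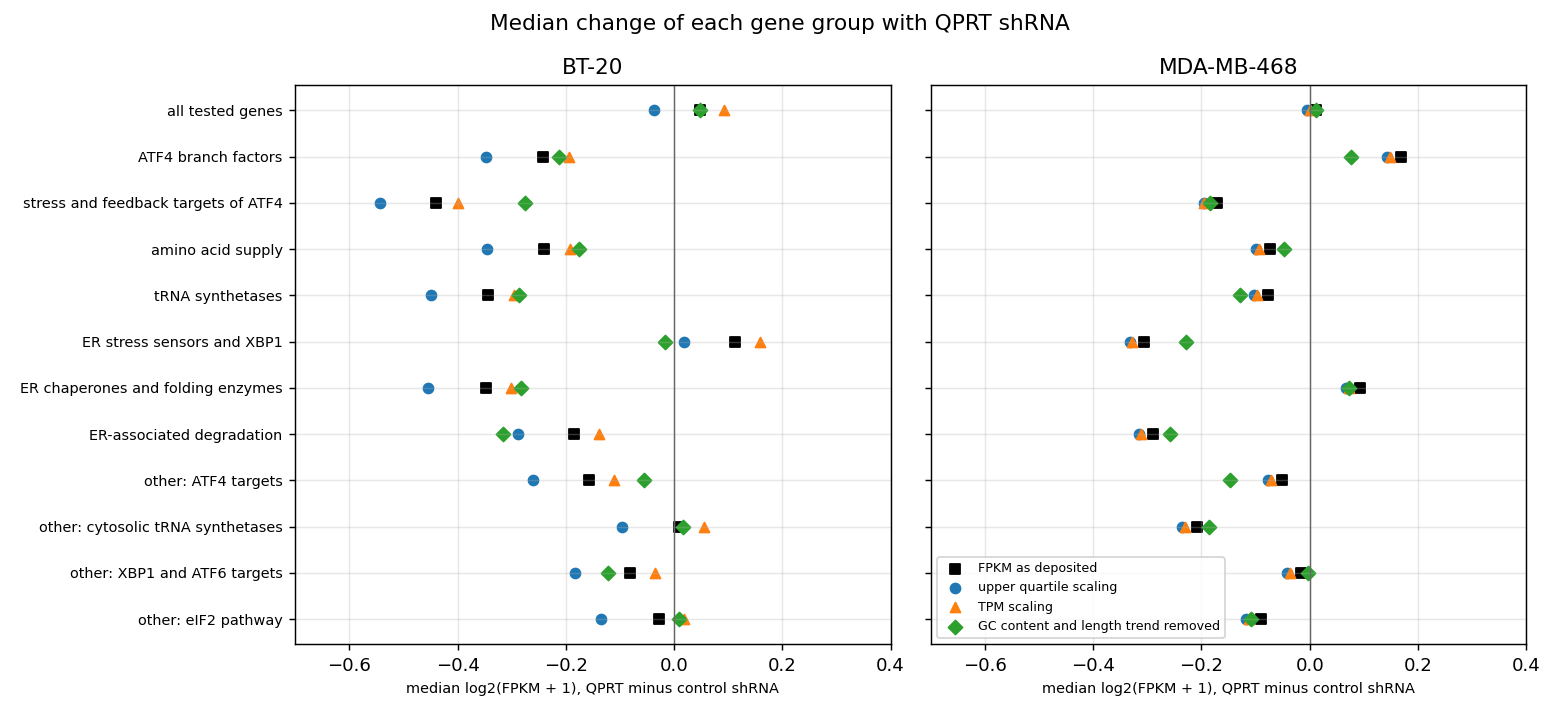
Median difference in log2(FPKM + 1), QPRT shRNA minus control shRNA, in BT-20 (left) and MDA-MB-468 (right) for all tested genes, the 7 role groups of the 38 genes and the 4 other lists, under the deposited FPKM and 3 other scalings. In BT-20 6 of the 7 role groups sit left of 0 under every scaling shown, with the sensors and XBP1 near 0, and in MDA-MB-468 the factors and chaperones sit right of 0.

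Between the lines, 16 of the 38 genes had both MDA-MB-468 libraries above both BT-20 libraries (background 42.8%) and 12 had both below (background 34.7%). For 10 genes the lines overlapped. A difference of 2-fold or more was seen for 9 genes with control shRNA (background 31.6%) and for 9 with QPRT shRNA (background 31.4%). In the limma fit with the shRNA as a block, 18 genes passed a Benjamini-Hochberg adjusted p of 0.05 (background 55.1%). With 2-fold or more besides, 3 genes were called higher in MDA-MB-468 (background 16.9%) and 3 lower (background 13.2%), so both shares of the 38, 7.89% each, lay below the background. The fit takes the control and QPRT shRNA libraries of a line as its replicates.

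TRIB3, the pseudokinase, had the largest line difference of the 38 genes. It was at 109.3 and 85.6 FPKM in BT-20, control first, and at 477.0 and 437.6 FPKM in MDA-MB-468, with no overlap. The limma log2 difference, MDA-MB-468 minus BT-20, was 2.23 with a standard error of 0.19 and an adjusted p of 1.76e-29, or 4.68-fold. Such small p-values rest on variance shared across genes, since the fit has 1 residual degree of freedom per gene and no replicate cultures. A fit of all 4 libraries without the shRNA term gave a limma adjusted p of 1.88e-05 for TRIB3. ASNS was higher in MDA-MB-468 by 1.16 (limma adjusted p 3.81e-08) and DDIT4 by 1.09 (limma adjusted p 4.47e-07). ASNS shares 44.6% of its exon bases with a transcript on the same strand, and DDIT4 shares 41.2% with its antisense gene. With 1 library left out the fit cannot keep the shRNA term, so those values are set against a fit of all 4 libraries without that term, where the limma adjusted p was 0.00115 for ASNS and 0.00526 for DDIT4. Without the BT-20 QPRT shRNA library ASNS stood at 1.03 with a limma adjusted p of 0.0580. DDIT4 had a limma adjusted p just above 0.05 without the BT-20 control library, 0.119 without the BT-20 QPRT shRNA library and 0.107 without the MDA-MB-468 control library.

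AARS1 was the most strongly lower of the 38 genes in MDA-MB-468, at -1.93 with a standard error of 0.19 and a limma adjusted p of 1.4e-23, or 3.8-fold. ATF5 was lower, at -1.18 (limma adjusted p 5.48e-07), from 43.5 and 45.8 FPKM in BT-20, control first, to 17.8 and 20.5 FPKM in MDA-MB-468. It shares 21.2% of its exon bases with NUP62 on the opposite strand. SARS1 was lower, at -1.16 (limma adjusted p 3.78e-09). In the fit without the shRNA term the limma adjusted p was 7.98e-05 for AARS1, 0.000568 for ATF5 and 0.000438 for SARS1. TRIB3, AARS1, ATF5 and SARS1 kept an adjusted p under 0.05 with any 1 library left out, with estimates down to -0.98 for SARS1 without the BT-20 control library. ATF5 stood at -0.95 with the GC trend removed, and ASNS at 0.93 without the MDA-MB-468 control library, both under 2-fold. DDIT4 stood at 0.98 under upper quartile scaling. Without the filter on low values no gene of the table passed, as given in the closing section.

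Genes past the adjusted p but under 2-fold included the regulators themselves. ATF4 was higher in MDA-MB-468 by 0.98 (limma adjusted p 9.18e-07) and XBP1 by 0.90 (limma adjusted p 1.18e-05). ERN1 was higher by 0.78, GARS1 by 0.73, CALR by 0.69, CEBPG by 0.59, SDF2L1 by 0.57 and DNAJB9 by 0.55. EDEM1 was lower, at -0.96, VLDLR at -0.83, PDIA4 at -0.81 and HSPA5 at -0.65. Of these 12 genes, ATF4 and PDIA4 kept a limma adjusted p under 0.05 in every alternative that kept the filter, and the other 10 missed it in at least 1. The SDF2L1 value rests on the low BT-20 library with QPRT shRNA, and was 0.04 without it.

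**Figure D4:**
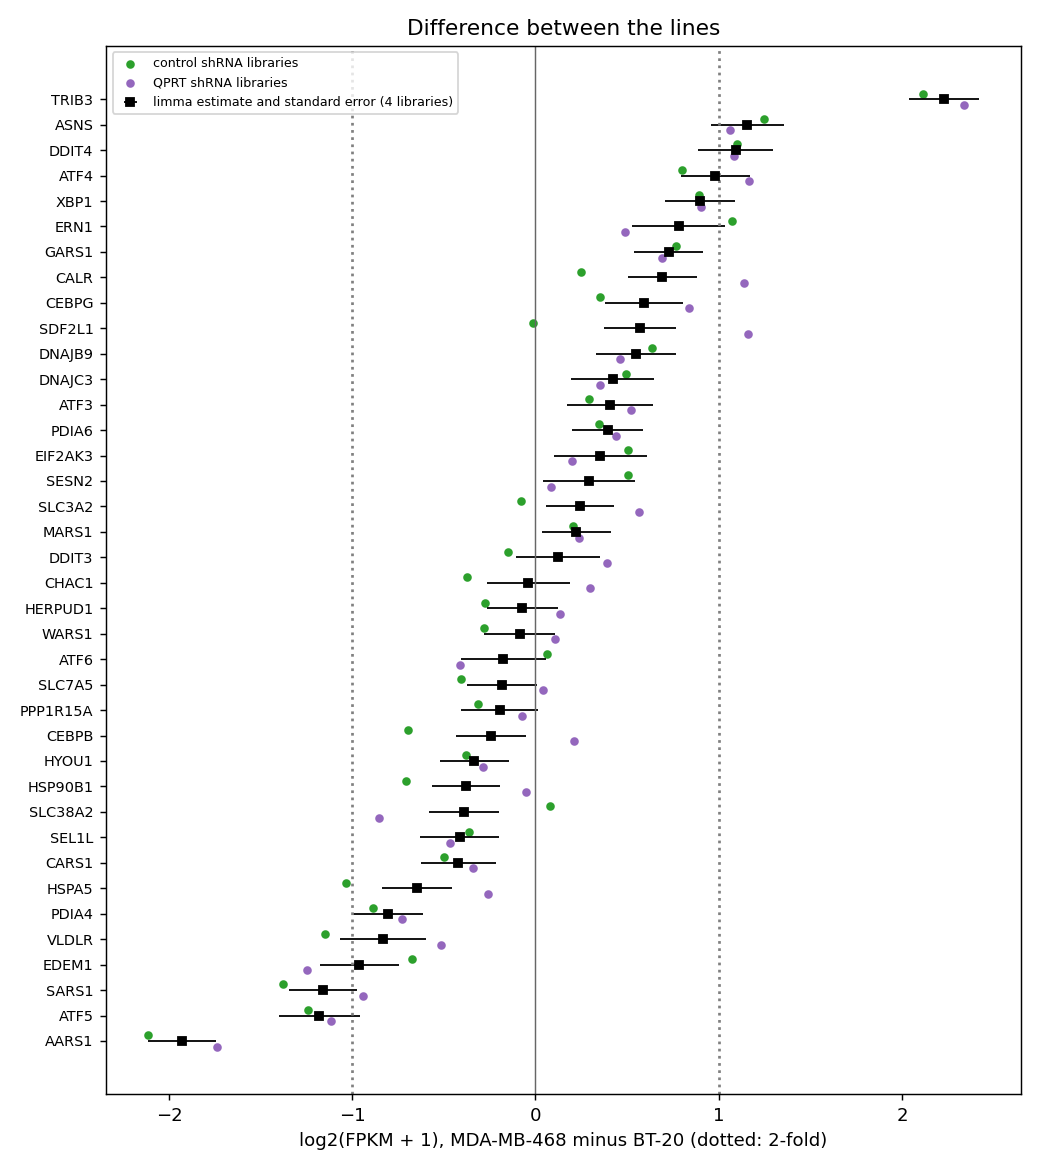
Difference in log2(FPKM + 1), MDA-MB-468 minus BT-20, of the 38 genes in order of the limma estimate, with black squares and bars for the estimate and its standard error, green points for the control shRNA libraries and purple points for the QPRT shRNA libraries. TRIB3 at 2.23 and AARS1 at -1.93 stand apart at the ends, and the green and purple points lie far apart for SDF2L1.

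The line differences of some of the 38 genes were shared with their neighbours on the chromosome, and those of others were not. How often this holds over all genes was not computed, so the values below have no background. AARS1, on chromosome 16, had 26 tested genes within 1000000 bases, and all 26 were lower in MDA-MB-468, with a median of -1.50. CALR, on chromosome 19, had 45 neighbours, of which 43 were higher, with a median of 0.61 beside its own 0.69. HSPA5, on chromosome 9, had 14 neighbours, of which 12 were lower, with a median of -0.67 beside its own -0.65. The own values of CALR and HSPA5 are averages of unlike line differences. CALR differed by 0.25 with control and 1.14 with QPRT shRNA, and HSPA5 by -1.04 and -0.26. TRIB3, on chromosome 20, had 20 neighbours with a median of 0.33, far below its own 2.23. ASNS, on chromosome 7, had 7 neighbours with a median of -0.36, against its own 1.16. SARS1, on chromosome 1, had 31 neighbours with a median of -0.45 against its own -1.16. DDIT4 had 17 neighbours with a median of 0.42 against its own 1.09, and ATF5 had 61 with -0.42 against its own -1.18. HERPUD1 had 31 neighbours with a median of 0.48 against its own -0.07. The cause of these shared differences was not tested.

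**Figure D5:**
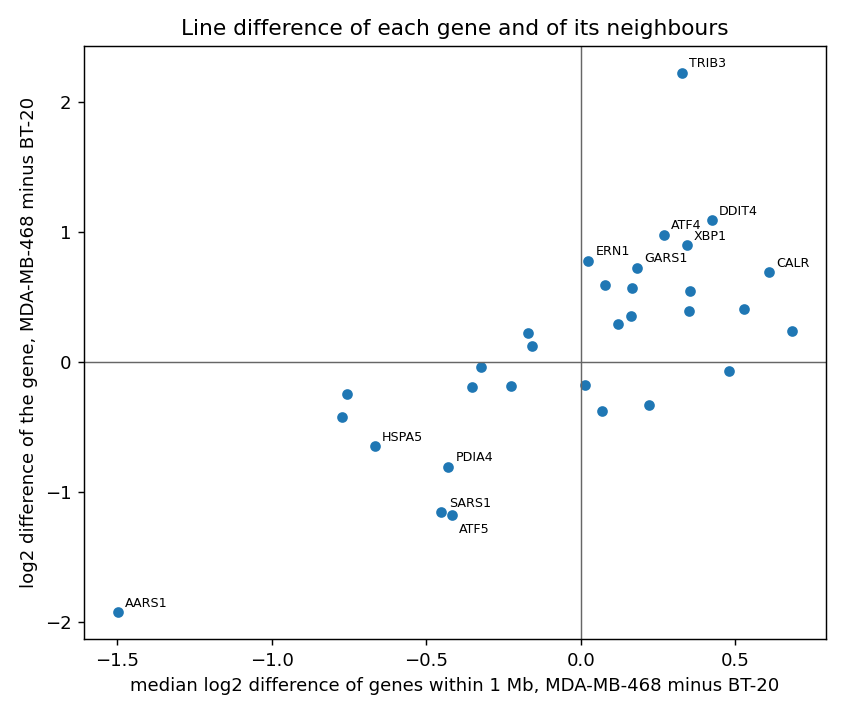
Limma line difference in log2(FPKM + 1), MDA-MB-468 minus BT-20, of each of 31 of the 38 genes with at least 10 tested neighbours (y axis) against the median difference of the genes within 1 Mb (x axis). AARS1 lies at the lower left with its neighbours at -1.50, whereas TRIB3 lies at 2.23 over neighbours at 0.33.

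In the background 16.9% of genes were called higher in MDA-MB-468 and 13.2% lower by the same limma rule. Of the other lists, 4 of the 23 ATF4 targets were called higher and 2 lower. The largest were ALDH1L2 (2.16), CTH (1.92), FGF21 (-1.50) and SLC7A11 (-1.23). Of the 28 XBP1 and ATF6 targets, 4 were called higher and 2 lower, with DERL3 at 2.23, ERO1B at -1.39, HSPA13 at 1.25 and SRPRB at 1.13. TARS1, threonyl-tRNA synthetase, was the 1 gene of the 14 other synthetases called, lower, at -1.08. All of these counts lay near or below the background shares.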

How the data were processed

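RNA from 4 cell cultures was extracted with Trizol and made into TruSeq libraries. The deposited values are FPKM per gene, which the authors made. The submitters' processing notes name TopHat2 2.0.12 and HTSeq 0.6.1, and the genome build and annotation are not given in the sources used here. Where FPKM, GENCODE 29 transcript length and a library total gave whole fragments (within 0.02), as they did for 87.3% to 87.6% of values, counting intervals were computed. For DDIT3, CHAC1, CARS1 and HSP90B1 the fragments were not whole, so their intervals are approximate. Genes with a mean of at least 1 FPKM were compared as log2(FPKM + 1), with a pseudocount of 1, which understates changes of low genes. limma 3.58.1 (R 4.3.3, trended variance, Benjamini-Hochberg over 14321 genes) was tested on simulated data first. Differences within a line have no test. The authors' DESeq2 test needs counts and was not used. The genes and lists were chosen with earlier results of these data known. Named are all 38 genes, QPRT and, of each other list, up to 4 called genes per comparison. The neighbour and overlap values were added after the data were seen.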

Additional observations from a re-analysis of the deposited data

Results flagged for a closer look

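In 9 of the 38 genes the difference with QPRT shRNA had opposite signs in the lines and the 2 log2 differences lay at least 1.5-fold apart, as in 19.0% of the 14321 genes tested. With 1 library per group the difference between the lines was not tested. The log2 difference in MDA-MB-468 minus that in BT-20 was 1.17 for SDF2L1, 0.90 for CEBPB, 0.89 for CALR, 0.78 for HSPA5, 0.67 for CHAC1, 0.65 for HSP90B1, 0.64 for SLC3A2 and 0.64 for VLDLR. It was -0.93 for SLC38A2, the only gene of the 9 that was higher in BT-20. In 4 of the 9, SDF2L1, CALR, HSPA5 and HSP90B1, the gene encodes an ER chaperone or its partner. The chaperones and folding enzymes make up 9 of the 38 genes. The sign of SDF2L1 in MDA-MB-468 turned with the GC trend removed, to -0.10. CHAC1 then stood at -0.21 and 0.19, BT-20 first, and SLC3A2 at -0.12 and 0.32, each pair less than 1.5-fold apart. SDF2L1, CHAC1 and SLC3A2 thus missed the rule under that setting, and the rest of the 9 genes still met it. Between samples of a group no value could be singled out, since each group is 1 library.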

How the results depend on the processing

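Counts of genes differing by 2-fold depended on the threshold and the treatment of low values. With QPRT shRNA in BT-20, 1 of the 38 genes passed 2-fold, 4 passed 1.5-fold and 0 passed 2-fold with the GC and length trend removed. Over all genes 244 passed, against 792 with a pseudocount of 0.1, 103 at a minimum mean of 5 FPKM, 370 without a filter and 1286 at 1.5-fold. In MDA-MB-468 0 of the 38 passed 2-fold and 1 passed 1.5-fold, and of all genes 271 passed, against 756, 96, 417 and 1313 in the same order. Between the lines, 9 of the 38 passed with each shRNA, and at 1.5-fold 17 with control and 15 with QPRT shRNA. Over all genes 4519 with control shRNA became 2984 at a minimum of 5 FPKM and 7754 at 1.5-fold, and 4491 with QPRT shRNA became 2923 and 7592. For the shRNA effect by limma, 90 genes became 1 with the trend removed (731 at an unadjusted limma p under 0.05), 45 at a minimum of 5 FPKM, 0 without the line in the fit (17 at an unadjusted limma p under 0.05) and 0 without a filter (813 at an unadjusted limma p under 0.05). For the line difference by limma, 6 of the 38 became 16 at 1.5-fold and 0 without a filter. Over all genes 4307 became 2798 at a minimum of 5 FPKM, 7227 at 1.5-fold and 0 without a filter (7482 at an unadjusted limma p under 0.05). The cause was not tested. With 1 library left out and, since 3 libraries leave no residual degree of freedom otherwise, the shRNA term dropped, 5 to 8 of the 38 and 3731 to 3975 of all genes passed. Dropping that term alone gave 6 and 4287. The shRNA effect could not be fitted with a library left out. The labels give no replicate numbers, and the fits were paired by line or shRNA only.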

Other observations

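The 13 genes of the eIF2 pathway itself (kinases, eIF2 subunits and its exchange factor eIF2B) were not among the 38. In BT-20 8 of the 13 were lower with QPRT shRNA, with a median of -0.03, and in MDA-MB-468 9 were lower, with a median of -0.09. EIF2B2, an eIF2B subunit named after its values were seen, was at 16.5 FPKM with control and 26.4 FPKM with QPRT shRNA in MDA-MB-468, a log2 difference of 0.64, and at 15.9 and 14.97 FPKM in BT-20. EIF2B3, another subunit, was the 1 gene of the 13 called between the lines by limma, where 16.9% of the background genes were called higher. It was higher in MDA-MB-468 by 1.44 on the log2 scale, from 16.9 and 14.2 FPKM in BT-20 to 48.6 and 39.2 FPKM.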
